A study of Homo sapiens with 6 samples.

Results

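The 68 genes described here encode enzymes that write or erase lysine marks on histones, together with their close relatives by name. They were chosen by symbol: every gene whose own probe set carried a symbol beginning with KDM, KMT, HDAC, SIRT, SETD or PRDM and a digit, which gave 68 of the 18132 genes measured and 227 probe sets. Where a gene had several probe sets, the one whose mean over the 6 arrays was highest stood for it. The rule itself used no measured difference between the groups, but it was set with earlier results of these data known. The set held 19 KDM genes, 14 PRDM genes, 11 HDAC genes, 9 SETD genes, 8 KMT genes and 7 SIRT genes.

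RNA came from BCPAP, an established line grown from a human papillary thyroid carcinoma. In the shCSF2 group the cells carried a lentiviral short hairpin RNA against CSF2, which encodes the cytokine GM-CSF, and in the shCtrl group a non-targeting hairpin. All cells of both groups were selected with puromycin, which began 48 hours after transduction and lasted 7 days. Each group held 3 arrays that the labels call biological replicates, and how many hairpins or separate transductions they stand for is not given in the sources used here. No probe set was paired with CSF2 alone, so the knockdown could not be checked, and in bulk RNA a change in the mix of cells cannot be told apart from a change per cell.

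Histone tails carry methyl and acetyl groups on their lysines, and these marks help set whether a gene is read or silenced. Methyltransferases with a SET domain add methyl groups. Demethylases remove them, either with a flavin cofactor (the KDM1 enzymes) or with a JmjC domain that needs iron, oxygen and 2-oxoglutarate (the other KDM enzymes). Histone deacetylases remove acetyl groups, the HDAC enzymes mostly with zinc and the sirtuins with NAD, and several of them act mainly on proteins other than histones. The PRDM genes encode zinc finger proteins with a PR domain, a relative of the SET domain, and most are known as transcription factors rather than enzymes.

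Values are log2 expression summaries, and a difference is the mean of the shCSF2 arrays minus the mean of the shCtrl arrays (log2 fold change, with its moderated standard error). A gene passed where the adjusted p of limma, a linear model fitted over all 18132 genes with Benjamini-Hochberg adjustment, was under 0.05. Array medians lay between 5.77 and 5.79, and no pair of arrays held identical values. The log2 ratio of 3' to 5' control probe sets of GAPDH, a measure of RNA integrity, lay between -0.02 and 0.00 in shCSF2 and between -0.05 and -0.03 in shCtrl arrays, a mean difference of 0.02 (exact two-sided permutation p = 0.1, the smallest that 3 against 3 allows). The same ratio for ACTB overlapped between groups (exact permutation p = 0.6), and the part of RNA integrity in the results was not tested. Of 8 thyroid and epithelial markers, the thyroid factor genes PAX8 (mean log2 value 8.09) and NKX2-1 (9.57) and the keratin genes KRT7, KRT8 and KRT18 (10.29 to 11.89) were well above the array medians. The thyroid factor gene FOXE1 (6.09) was only slightly above them, and KRT19 (4.08) and EPCAM (5.68) were below them. Of these 8 markers 2 fell, NKX2-1 (-0.42, limma adjusted p = 0.000315) and KRT8 (-0.26, limma adjusted p = 0.00518), and their part in the results was not tested. Of 12 markers of fibroblasts, leukocytes and endothelium, with means between 2.34 and 6.55, only COL1A2 passed, with a log2 fold change of -0.21.

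Among the 68 members, 17 were higher and 8 were lower in shCSF2 cells. Together these 25 are 36.8% of the members, against 32.7% of all genes, so the total stood near the background. In the upward direction 25% of members passed, against 16.7% of all genes, and in the downward direction 11.8%, against 16%. These shares are not matched for signal level. Of all 18132 genes, 5697 had a mean log2 value under 5, and 528 of these passed. Of the 68 members, 12 were as dim, and 2 of these passed. The count of 8 lower members ran from 5 to 13 under other settings. The changes were small. The largest was that of KDM6A, at 1.56-fold, the only member to pass 1.5-fold, and no member reached 2-fold. The median absolute log2 fold change among the members that passed was 0.25, compared with 0.27 among all genes that passed. Over all 68 members the median log2 fold change was -0.02, against -0.03 over all genes. The 3 arrays of one group lay entirely above or below those of the other in 35 members (51.5%), against 46.7% of all genes: 18 members above, where 22.1% of all genes lay above, and 17 below, where 24.6% did.

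Members that passed were counted by name family, beside 16.7% of all genes higher and 16% lower. The KDM genes had 7 of 19 higher and 1 lower, and the SETD genes 4 of 9 higher and 0 lower. Among PRDM genes 4 of 14 were higher and 1 was lower. The HDAC genes had 1 of 11 higher and 4 lower, with a negative value in 9 of the 11, against 10360 of all 18132 genes. Of 7 SIRT genes 1 rose and 1 fell, and of 8 KMT genes 0 rose and 1 fell. By the most variable probe set of each gene, 3 KMT genes rose and 0 fell, and the HDAC genes had 1 higher and 2 lower. When each gene's probe sets were averaged, 4 KDM genes were higher and 2 lower, and 2 PRDM genes were higher and 2 lower. The 4 higher SETD genes were 2 without shCSF2 replicate 3 and without shCtrl replicate 1. Whether the families differ from each other was not tested. The family medians ran from -0.09 for HDAC and -0.07 for SIRT genes, through -0.03 for KMT, -0.02 for SETD and 0.02 for KDM genes, to 0.06 for PRDM genes.

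**Figure D1:**
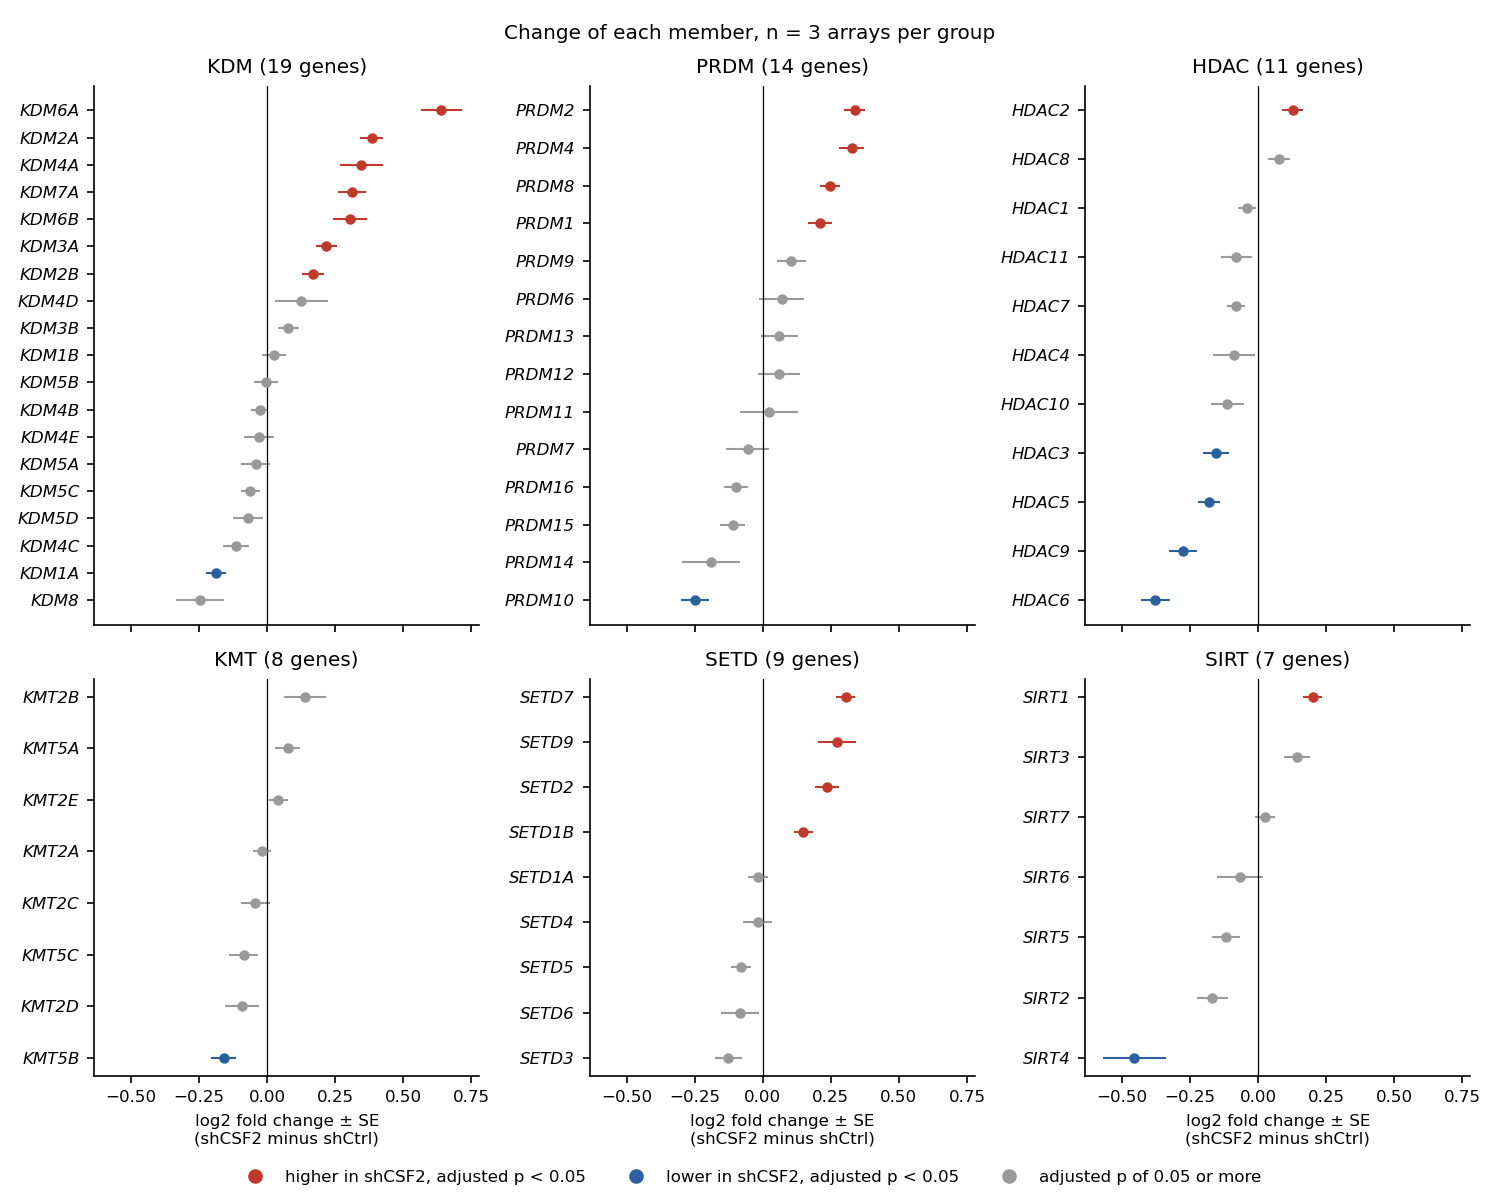
Log2 fold change (shCSF2 minus shCtrl, horizontal axis) of each of the 68 members with its moderated standard error, in 1 panel per family. Red and blue points passed the limma test in the upward and downward direction. KDM6A stands furthest to the right at 0.64 and SIRT4 furthest to the left at -0.46. Left of 0 lie 9 of the 11 HDAC genes, where 10360 of all 18132 genes have a negative value.

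The JmjC demethylases held the largest rises. KDM6A, also called UTX, removes methyl groups from lysine 27 of histone H3, the mark laid down by Polycomb complexes. It read 6.22, 6.17 and 6.29 in the shCtrl arrays and 6.78, 7.03 and 6.79 in the shCSF2 arrays, so that the groups stood well apart, with shCSF2 replicate 2 the highest. Its log2 fold change was 0.64 ± 0.08 (limma adjusted p = 0.000869), and its other probe set gave 0.59. KDM6B, also called JMJD3, acts on the same residue and is known as an inflammation-induced gene. It read 4.95, 4.74 and 4.94 in shCtrl and 5.17, 5.16 and 5.21 in shCSF2 arrays, a rise of 0.30 ± 0.06 (limma adjusted p = 0.00950) at a level below the array medians. Both of its probe sets rose, by 0.30 and 0.31. KDM7A, which removes methyl groups from lysines 9 and 27 of histone H3, rose from 5.73 ± 0.06 to 6.04 ± 0.07 (mean ± SD, n = 3 arrays), or 1.24-fold, and its second probe set had a value of 0.22 without passing.

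KDM2A and KDM2B remove methyl groups from lysine 36 of histone H3 and bind unmethylated CpG islands through a CXXC domain. KDM2A read 6.50, 6.45 and 6.45 in shCtrl and 6.92, 6.81 and 6.82 in shCSF2 arrays, a log2 fold change of 0.38 ± 0.04 (limma adjusted p = 0.000747). Its groups were clearly separate, and its second probe set passed too, at 0.22. KDM2B, a part of a variant Polycomb complex, had a smaller rise of 0.17 ± 0.04, and 2 of its 5 probe sets passed. The rise of KDM2B was not called without shCSF2 replicate 1 or 2 or shCtrl replicate 1 or 2, where it stayed between 0.15 and 0.17. With all probe sets averaged it was 0.09 and not called (limma adjusted p = 0.0808). With replicate number as a block it was not called either (limma adjusted p = 0.0570). KDM2B falls outside the rule for named genes and was chosen after its value was seen.

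KDM3A and KDM4A act on lysine 9 of histone H3, and KDM4A also on lysine 36. KDM3A, a known hypoxia-inducible gene, read 8.52, 8.58 and 8.52 in shCtrl and 8.72, 8.75 and 8.79 in shCSF2 arrays. The rise was 0.22 ± 0.04 (limma adjusted p = 0.00454) by the brightest probe set and 0.18 by the next, but the remaining, dimmest one fell, with a value of -0.29, so the direction depends on the probe set. KDM4A rose by 0.35 ± 0.08, from 6.56 ± 0.15 to 6.90 ± 0.06 (mean ± SD, n = 3 arrays). Its other probe set had a value of -0.09, and with both averaged KDM4A did not pass (0.13, limma adjusted p = 0.0554).

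The only KDM gene that fell was KDM1A, or LSD1, the flavin-dependent demethylase of lysine 4 of histone H3 and a core subunit of the CoREST repressor complex with HDAC1 and HDAC2. It read 9.92, 9.96 and 9.99 in shCtrl and 9.74, 9.79 and 9.78 in shCSF2 arrays, with no overlap. The change was -0.19 ± 0.04 (limma adjusted p = 0.00740), measured by its single probe set. Its paralogue KDM1B did not pass (0.02 ± 0.04). The other 10 KDM genes that did not pass lay between -0.25 and 0.12. Among them were KDM3B (0.08), a paralogue of KDM3A, and the KDM4A paralogues KDM4B (-0.03), KDM4C (-0.12), KDM4D (0.12) and KDM4E (-0.03), and 1 of the 4 probe sets of KDM4B fell (-0.25). The KDM5 enzymes, which remove methyl groups from lysine 4 of histone H3, had values of -0.04 for KDM5A, -0.0050 for KDM5B, -0.06 for KDM5C and -0.07 for KDM5D, and 0 of their 23 probe sets passed. KDM5D (4.77), KDM4D (4.94) and KDM4E (4.58) were dim, with mean log2 values under 5. KDM8 had the lowest value of the family, -0.25 ± 0.09, without passing (limma adjusted p = 0.0714).

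For the members that moved, the 250 bases before the transcript start were read from the RefSeq promoter table (GRCh38.p14), which held 61 of the 68 members. The sequences of 6 members are shown: the JmjC demethylases KDM6A, KDM7A and KDM2A and the sirtuin SIRT1, which rose, and KDM1A and SIRT4, which fell. Where the table lists several starts, the first is shown. Letters run 5′ to 3′ on the gene's own strand, and capitals mark any match, on either strand, to 5 short motifs: ACGTG (the hypoxia response core), CACGTG (the E-box bound by MYC and CLOCK, which contains ACGTG), TGACGTCA (the CRE site of ATF and CREB proteins), TGANTCA (the AP-1 site) and GCGGGGGCG (an EGR1 site).
KDM6A, chrX:44872938-44873187, plus strand: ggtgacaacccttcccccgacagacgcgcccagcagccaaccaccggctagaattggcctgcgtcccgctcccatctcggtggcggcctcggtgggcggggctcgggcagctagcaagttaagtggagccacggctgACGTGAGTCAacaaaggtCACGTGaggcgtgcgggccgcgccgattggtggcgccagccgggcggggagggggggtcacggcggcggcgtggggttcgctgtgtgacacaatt
KDM7A, chr7:140176984-140177233, minus strand: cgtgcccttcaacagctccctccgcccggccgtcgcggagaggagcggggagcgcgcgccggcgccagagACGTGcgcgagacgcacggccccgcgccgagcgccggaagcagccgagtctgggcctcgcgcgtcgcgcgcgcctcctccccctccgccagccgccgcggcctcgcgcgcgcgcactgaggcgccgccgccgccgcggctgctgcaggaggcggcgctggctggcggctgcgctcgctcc
KDM2A, chr11:67119013-67119262, plus strand: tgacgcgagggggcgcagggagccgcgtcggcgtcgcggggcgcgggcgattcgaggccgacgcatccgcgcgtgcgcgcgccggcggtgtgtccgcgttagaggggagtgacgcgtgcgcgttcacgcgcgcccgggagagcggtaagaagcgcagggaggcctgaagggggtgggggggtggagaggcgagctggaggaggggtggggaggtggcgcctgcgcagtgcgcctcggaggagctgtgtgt
SIRT1, chr10:67884406-67884655, plus strand: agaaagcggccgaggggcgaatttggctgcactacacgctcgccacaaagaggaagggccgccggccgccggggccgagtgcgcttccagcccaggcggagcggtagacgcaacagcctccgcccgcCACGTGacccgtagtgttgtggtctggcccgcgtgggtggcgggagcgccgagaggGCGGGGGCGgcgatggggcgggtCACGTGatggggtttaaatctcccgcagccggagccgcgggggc
KDM1A, chr1:23019218-23019467, plus strand: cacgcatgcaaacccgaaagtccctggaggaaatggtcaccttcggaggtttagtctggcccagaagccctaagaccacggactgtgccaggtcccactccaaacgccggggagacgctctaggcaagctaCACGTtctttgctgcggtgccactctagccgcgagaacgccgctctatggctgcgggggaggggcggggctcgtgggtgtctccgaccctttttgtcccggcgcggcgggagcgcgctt
SIRT4, chr12:120291939-120292188, plus strand: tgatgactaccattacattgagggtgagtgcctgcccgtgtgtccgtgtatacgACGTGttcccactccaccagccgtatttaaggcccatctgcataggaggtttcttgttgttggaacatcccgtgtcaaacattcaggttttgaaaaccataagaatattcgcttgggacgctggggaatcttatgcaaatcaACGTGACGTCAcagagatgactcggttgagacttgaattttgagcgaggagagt

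The ACGTG core was present in the promoters of 5 of the 16 members that rose and had an entry (KDM6A, KDM7A, PRDM1, PRDM8 and SIRT1), in 3 of the 7 that fell (HDAC3, KDM1A and SIRT4), in 6 of the 38 that did not pass, and in 21.0% of the 14425 promoters of measured genes. CACGTG was found in 2 that rose (KDM6A and SIRT1), 0 that fell and 5 that did not pass, against 7.83% of all. TGANTCA was present in KDM6A and HDAC9 among those that moved and in 2 others (5.07% of all), and TGACGTCA in SIRT4 and no other member (2.38% of all). GCGGGGGCG was found in SIRT1 and 4 members that did not pass (6.59% of all). The KDM6A sequence held an AP-1 match that overlaps an ACGTG, followed a few bases on by an E-box. The KDM2A sequence held none of the 5 motifs. These matches describe letters in a window and were not tested against the changes.

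SETD2, the main enzyme for trimethylation of lysine 36 of histone H3, rose. So did KDM2A and KDM2B, which remove methyl groups from the same residue, though mainly where it is not trimethylated. SETD2 went from 8.72 ± 0.04 to 8.95 ± 0.05 (mean ± SD, n = 3 arrays). Its lowest shCSF2 array, at 8.89, stood above its highest shCtrl array, at 8.75, the log2 fold change was 0.24 ± 0.04 (limma adjusted p = 0.00577), and 3 of 3 probe sets passed, with values up to 0.34. SETD7, which methylates lysine 4 of histone H3 and many other proteins, read 8.64, 8.63 and 8.62 in shCtrl and 8.96, 8.94 and 8.89 in shCSF2 arrays. This rise of 0.30 ± 0.03 (limma adjusted p = 0.000754) was seen in both of its probe sets.

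SETD1B, a catalytic subunit of a COMPASS complex for lysine 4 of histone H3, rose by 0.15 ± 0.03, while its paralogue SETD1A had a value of -0.02 ± 0.04 and did not pass. Each was measured by 1 probe set, and the difference between the paralogues was not tested. The call of SETD1B was lost without shCSF2 replicate 3 (0.13) and without shCtrl replicate 1 (0.14). SETD9, a little studied family member, rose from 4.41 ± 0.11 to 4.68 ± 0.09 (mean ± SD, n = 3 arrays), at the dim end of the arrays. Its call was lost without shCSF2 replicate 1 or 3 and without shCtrl replicate 1 or 2, with values of 0.23 to 0.26. The remaining SETD genes did not pass, with values from -0.13 for SETD3, an actin histidine methyltransferase, to -0.02 for SETD4. SETD5 and SETD6 both had values of -0.08. A second probe set of SETD4 rose, at 0.24.

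The KMT2 genes encode the large MLL proteins, most of them methyltransferases of lysine 4 of histone H3, and 0 of the 5 passed. KMT2A read 9.21, 9.22 and 9.25 in shCtrl and 9.22, 9.19 and 9.21 in shCSF2 arrays, which overlapped, with a log2 fold change of -0.02 ± 0.03. Of its 8 probe sets, 1 fell (-0.22) and 0 rose. KMT2B (0.14 ± 0.08), KMT2C (-0.04 ± 0.05), KMT2D (-0.09 ± 0.06) and KMT2E (0.04 ± 0.04) overlapped as well. For KMT2E 3 of 9 probe sets rose, at 0.16 to 0.23.

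The KMT5 enzymes methylate lysine 20 of histone H4, and their result turned on the probe set. KMT5B, which adds methyl groups beyond the first, fell by the rule's probe set, from 7.63, 7.60 and 7.70 in shCtrl to 7.42, 7.51 and 7.52 in shCSF2 arrays (-0.16 ± 0.05, limma adjusted p = 0.0370). Yet 3 of its 6 probe sets rose, by 0.77, 0.66 and 0.33, and the largest of these exceeded the change of KDM6A. With all 6 averaged KMT5B rose by 0.33 (limma adjusted p = 0.000296). When single arrays were left out, the fall was called only without shCtrl replicate 2 and otherwise lay between -0.18 and -0.13 without passing, so the direction of KMT5B is uncertain. KMT5A, which adds the first methyl group, did not pass by the rule's probe set (0.07 ± 0.05), but 3 of its 5 probe sets rose, at 0.20 to 0.25. KMT5C did not pass (-0.09 ± 0.05).

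**Figure D2:**
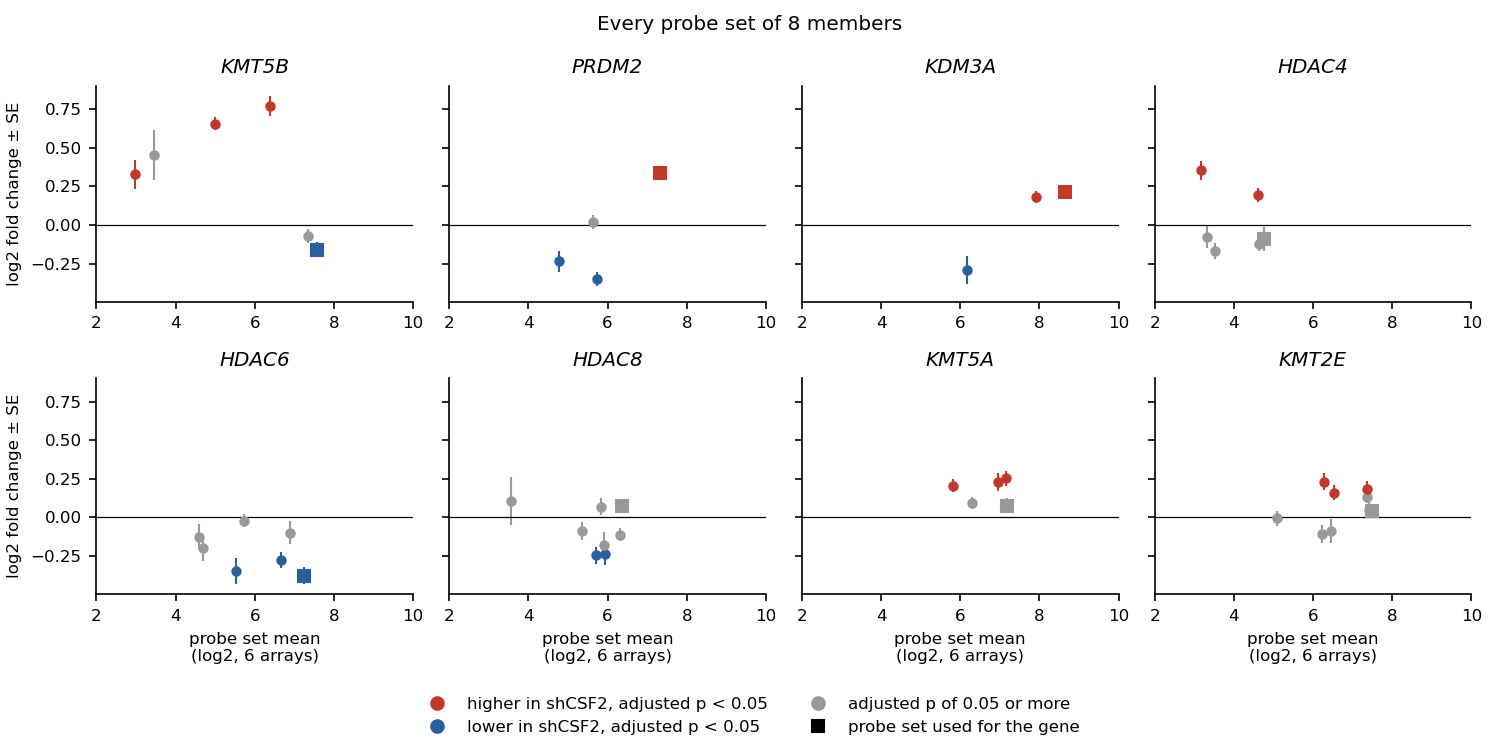
Log2 fold change with its standard error (vertical axis) against the mean log2 value over the 6 arrays (horizontal axis) for every probe set of 8 members, with the probe set that represents the gene as a square. For KMT5B the square lies below 0 while 3 dimmer probe sets rose by up to 0.77, and for PRDM2 and KDM3A the brightest probe set rose and the dimmest fell.

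Among the PRDM genes, PRDM2 (RIZ), a gene studied as a tumour suppressor, read 7.19, 7.16 and 7.14 in shCtrl and 7.53, 7.54 and 7.45 in shCSF2 arrays. By this probe set it rose by 0.34 ± 0.04 (limma adjusted p = 0.000837), but 2 of its other 3 probe sets fell, at -0.35 and -0.24, and with all averaged the value was -0.06. PRDM4 was steadier. It read 8.17, 8.17 and 8.20 in shCtrl and 8.42, 8.54 and 8.57 in shCSF2 arrays, a rise of 0.33 ± 0.05 (limma adjusted p = 0.00178), and both of its probe sets rose. PRDM1 (BLIMP1), a repressor that drives plasma cell differentiation, rose from 6.37 ± 0.07 to 6.58 ± 0.02 (mean ± SD, n = 3 arrays), and 3 of its 5 probe sets passed, at up to 0.36.

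PRDM8 rose by 0.25 ± 0.04, with 1 of 3 probe sets past the threshold, and did not pass with all averaged (0.13). PRDM10 was the PRDM gene that fell, from 7.40 ± 0.08 to 7.15 ± 0.05 (mean ± SD, n = 3 arrays), and both of its probe sets had a value of -0.25. Of the 9 PRDM genes that did not pass, 6 had a mean log2 value under 5, among them PRDM14, a germ cell and pluripotency factor, and PRDM13, whose mean was 2.11. PRDM9, the germ cell enzyme that marks recombination sites, had a value of 0.11 ± 0.05 and did not pass. The others had values of -0.11 for PRDM15, -0.10 for PRDM16, -0.06 for PRDM7, 0.02 for PRDM11, 0.06 for PRDM12 and 0.07 for PRDM6, and 1 of the 4 probe sets of PRDM15 fell (-0.24).

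Among the deacetylases the falls lay in HDAC6, HDAC9, HDAC5 and HDAC3. HDAC6, a mostly cytoplasmic enzyme that deacetylates tubulin, read 7.41, 7.42 and 7.48 in shCtrl and 6.98, 7.16 and 7.03 in shCSF2 arrays, with a wide gap between the groups. It fell 1.30-fold (-0.38 ± 0.05, limma adjusted p = 0.00191), and 3 of its 7 probe sets fell and 0 rose. HDAC9 and HDAC5 are class IIa enzymes, which shuttle between nucleus and cytoplasm and bind MEF2 factors. HDAC9 fell from 6.71 ± 0.09 to 6.44 ± 0.02 and HDAC5 from 7.17 ± 0.04 to 6.99 ± 0.04 (mean ± SD, n = 3 arrays). Each rested on its brightest probe set, since 0 of the other 4 of HDAC9 and 0 of the other 2 of HDAC5 passed, and averaging all probe sets took HDAC9 to -0.08 without a call.

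HDAC1, HDAC2, HDAC3 and HDAC8 are the nuclear class I enzymes. HDAC2 read 9.83, 9.82 and 9.80 in shCtrl and 9.98, 9.98 and 9.88 in shCSF2 arrays, which did not overlap, and rose by 0.13 ± 0.04. HDAC3, the catalytic subunit of the NCoR and SMRT complexes, read 7.91, 7.99 and 7.89 in shCtrl and 7.70, 7.83 and 7.79 in shCSF2 arrays and fell (-0.15 ± 0.05). Both calls lay at the threshold (limma adjusted p = 0.0484 for each) and each was lost in 5 of the 6 fits without 1 array, that of HDAC2 in all but the fit without shCSF2 replicate 3 (0.11 to 0.13) and that of HDAC3 in all but the fit without shCSF2 replicate 2 (-0.17 to -0.12). HDAC1 did not pass (-0.04 ± 0.03), although its groups did not overlap, and HDAC8 had a value of 0.07 ± 0.04 by the rule's probe set while 2 of its 8 probe sets fell. HDAC4, HDAC7, HDAC10 and HDAC11 did not pass, at -0.11 to -0.08. HDAC4 was dim, with a mean log2 value of 4.75, and 2 of its 6 probe sets rose, at 0.20 and 0.35, whereas 1 of the 5 probe sets of HDAC11 fell (-0.35).

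SIRT1 and SIRT4 were the sirtuins that passed. SIRT1, a nuclear deacetylase of histones and p53, read 7.53, 7.55 and 7.59 in shCtrl and 7.78, 7.73 and 7.76 in shCSF2 arrays. This narrow but complete separation gave a rise of 0.20 ± 0.04 (limma adjusted p = 0.00478). The second probe set of SIRT1 had a value of 0.16 without passing. SIRT4, a mitochondrial enzyme that restrains glutamine use, read 5.11, 4.73 and 5.05 in shCtrl and 4.33, 4.58 and 4.62 in shCSF2 arrays, the largest fall among the members (-0.46 ± 0.12, limma adjusted p = 0.0234). Its values were dim and scattered, with shCtrl replicate 2 close to the shCSF2 arrays, and the call was lost without shCSF2 replicate 1 (-0.36), shCtrl replicate 1 (-0.38) or shCtrl replicate 3 (-0.41). The cytoplasmic SIRT2 (-0.17 ± 0.06, limma adjusted p = 0.0579) and the mitochondrial SIRT3 (0.14 ± 0.05, limma adjusted p = 0.0621) lay just outside the threshold. SIRT5 (-0.12), SIRT6 (-0.07) and SIRT7 (0.02) did not pass.

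**Figure D3:**
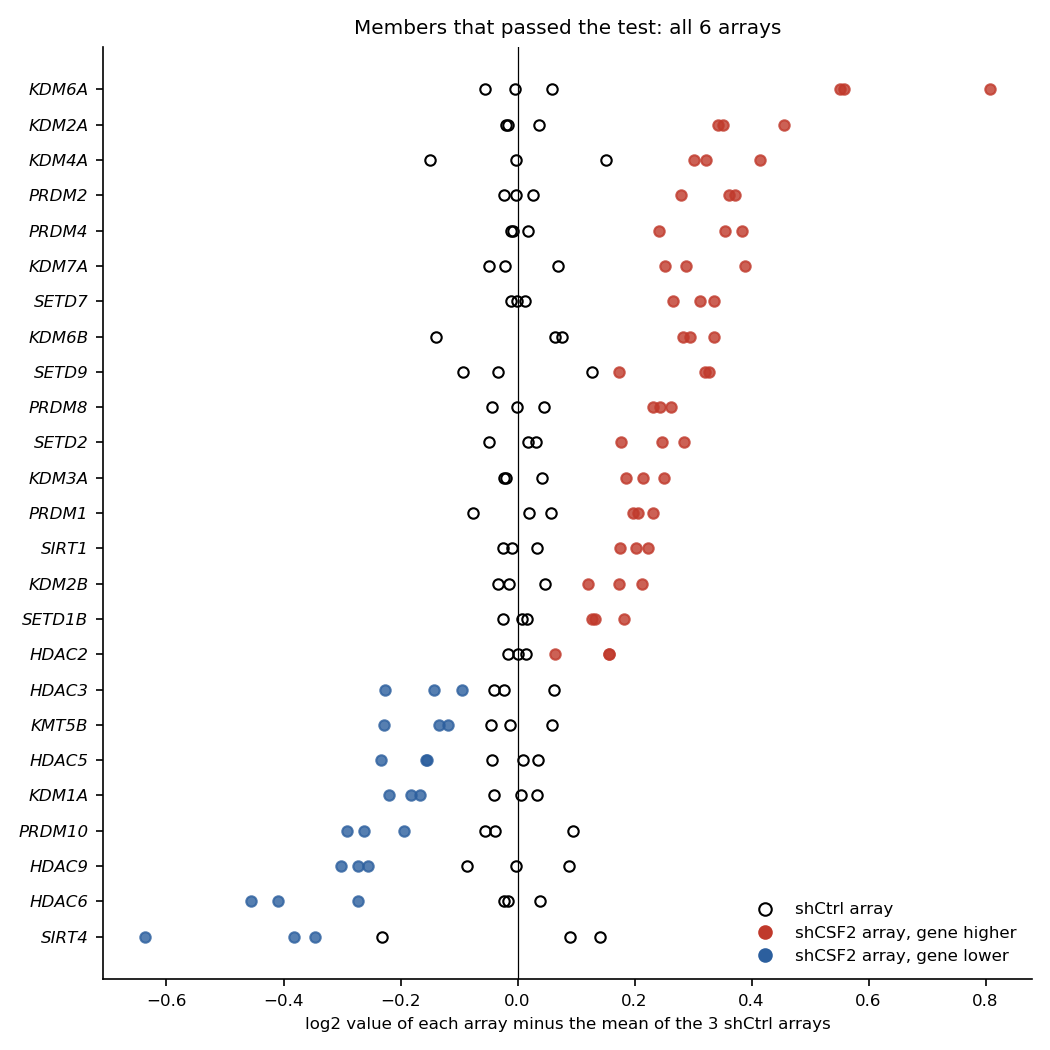
Log2 value of each of the 6 arrays minus the mean of the 3 shCtrl arrays (horizontal axis) for the 25 members that passed, with open circles for shCtrl and filled circles for shCSF2 arrays. No member shows overlap between the groups, and the distance is narrowest for HDAC2 and SETD9 among the higher genes and for HDAC3 among the lower ones.

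Taken at the level of single probe sets, 39 of the 227 rose and 19 fell, or 58 in all (25.6%). Of all probe sets on the arrays 15.3% rose and 13.8% fell, or 29.1% in all. Of the 25 members that passed, 20 had more than 1 probe set. In 7 of these every probe set passed in the gene's direction (KDM2A, KDM6A, KDM6B, PRDM4, PRDM10, SETD2 and SETD7), in 9 some passed and none opposed, in 3 some opposed (KDM3A, KMT5B and PRDM2), and in HDAC2 none passed in the fit over probe sets. Among the 43 members that did not pass, 9 had at least 1 probe set that did.

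Genes that work with these enzymes or share their fold were set beside them from lists. Other JmjC proteins, most of which also depend on 2-oxoglutarate, had 8 of 14 members higher and 1 lower, with a median log2 fold change of 0.21. RIOX2 (0.56 ± 0.04) and RIOX1 (0.51 ± 0.06), ribosomal oxygenases, and TYW5, a tRNA hydroxylase (0.48 ± 0.05), rose most. The single fall was JARID2 (-0.46), which has a JmjC domain without demethylase activity and recruits the Polycomb complex PRC2, named after its value was seen. The count of 8 higher was the same or 9 under every alternative tried.

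Other lysine methyltransferases had 4 of 19 members higher and 1 lower (median 0.03), with SMYD2 (0.40 ± 0.05) and SUV39H2 (0.33 ± 0.06) higher. EZH2, the PRC2 methyltransferase that opposes KDM6A and KDM6B, rose by 0.18 ± 0.05, but had a value of -0.22 by its most variable probe set. Partners in PRC2 had 1 of 10 higher and 4 lower (median -0.05): AEBP2 rose (0.49 ± 0.05), and the histone-binding gene RBBP4 (-0.31 ± 0.04) and PHF1 (-0.25 ± 0.06) fell. EED (0.12) and SUZ12 (0.10), named after their values were seen, did not pass. The count of 4 lower was 2 without shCSF2 replicate 1 or 3 and without shCtrl replicate 2 or 3. Of 13 COMPASS partners of the KMT2 enzymes, 2 rose and 1 fell (median 0.04). NCOA6 (0.41 ± 0.04) and PAXIP1 (0.38 ± 0.05), which belong to the KMT2C and KMT2D complexes together with KDM6A, were those that rose, and BOD1L1 fell (-0.19 ± 0.04).

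Corepressor partners of HDAC1, HDAC2 and HDAC3 moved in both directions, with 6 of 23 higher and 3 lower (median -0.01). RCOR1 (0.50 ± 0.03) and RCOR3 (0.48 ± 0.05), CoREST scaffolds that bind KDM1A, rose, while RCOR2 did not pass (-0.02 ± 0.04). TBL1XR1 (-0.69 ± 0.03), a subunit of the NCoR complex that contains HDAC3, fell. The other falls were HMG20B (-0.34 ± 0.04) and PHF21A (-0.28 ± 0.04), which also belong to the CoREST complex. RBBP4 (-0.31) and RBBP7 (-0.13), which fell as well, were counted in the PRC2 list alone and not here. HMG20B, PHF21A, RCOR2 and RBBP7 were named after their values were seen. The count of 3 lower was 7 where genes at or above the median level alone were fitted and 6 with quantile normalisation repeated. Histone acetyltransferases, the enzymes that oppose the deacetylases, had 7 of 15 higher and 2 lower (median 0.09). CLOCK (0.55 ± 0.04), a circadian transcription factor with reported acetyltransferase activity, KAT2B (0.30 ± 0.03) and NCOA1 (0.28 ± 0.05) rose most. The count of 7 was 4 with the replicate block and in the fit without any 1 array except shCtrl replicate 3. These counts stand beside 16.7% of all genes higher and 16% lower, without matching for signal level, and no list was tested against other genes.

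**Figure D4:**
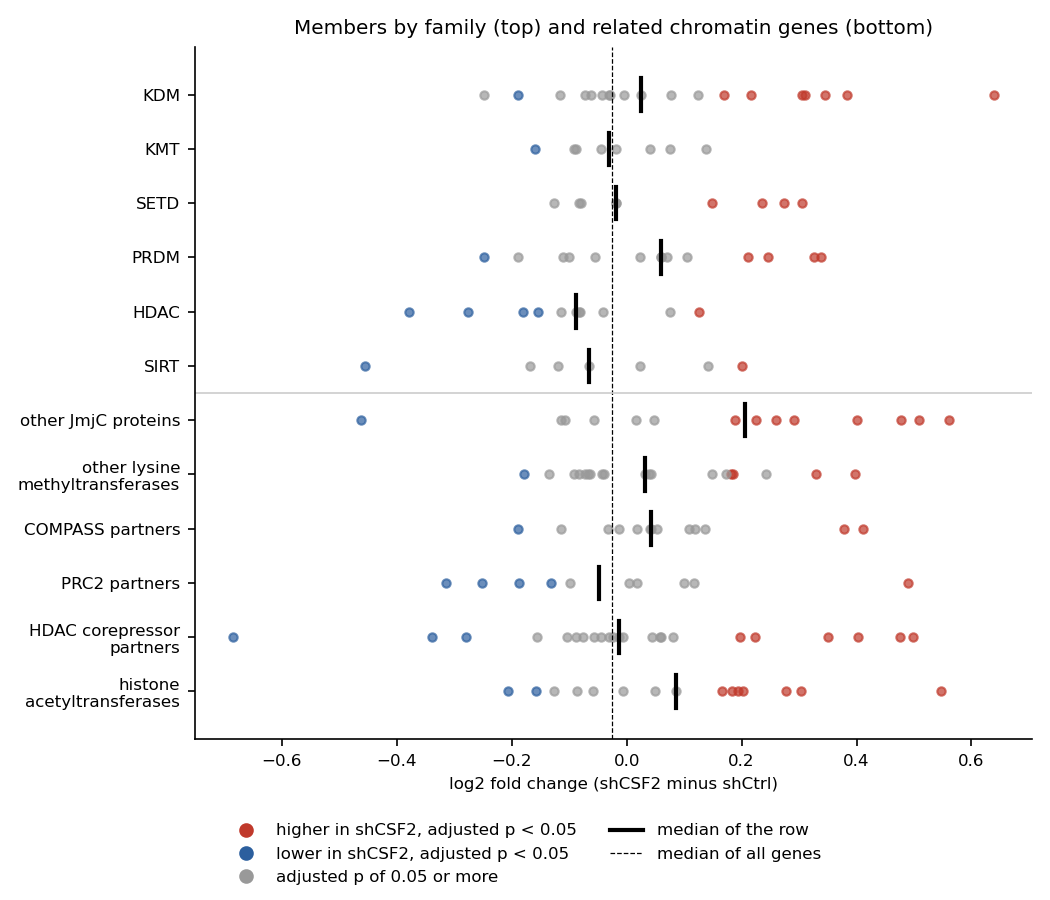
Log2 fold change (horizontal axis) of each gene, in a row per member family (top) and per related list (bottom), with the median of each row as a black bar and the median of all genes as a dashed line. The row of other JmjC proteins has its median at 0.21 and the HDAC row at -0.09.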

How the data were processed

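The authors deposited a log2 value for every probe set of each Affymetrix PrimeView array. RMA, limma and oligo are listed in the submitters' processing notes, with no version or role. RMA values can compress differences at low signal, and the small number of arrays limits precision. Of 49395 probe sets, 102 controls were set aside, and 44988 of the others had 1 gene symbol in the platform annotation. Differences were fitted with lmFit and eBayes (limma 3.58.1, R 4.3.3) over 18132 genes, without block, filter or trend, and separately over all 49293 probe sets. The fit was also run on simulated data with far fewer changed genes than passed here, and no result rests on that run. Figures were drawn with matplotlib 3.10.9.

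In each family the named genes were up to 5 members with the largest change among those that passed without overlap, the member with the highest mean, and any member with probe sets passing in opposite directions. Of each related list they were up to 3 passing members with the largest change. Other members are named so that all 68 are accounted for. Members, lists and motifs were chosen with earlier results of these data known. P-values measure the spread between these arrays. The main fit did not pair arrays by replicate number.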

Additional observations from a re-analysis of the deposited data

How the results depend on the processing

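Over 16 alternatives, the count of higher members ran from 13 to 18 and that of all genes passing from 4918 to 6854. The count of 8 lower members became 13 when only genes at or above the median level were fitted, where fewer genes were tested. It was 10 for genes with a mean log2 value of at least 5. With quantile normalisation repeated it was 12, as it was with limma's trend and robust options. Without 1 array it ran from 5 to 9, with 5 without shCSF2 replicate 1 and without shCtrl replicate 1. With the replicate block, 15 members were higher, 7 were lower and 5469 genes passed. Deviations from the group mean correlated at 0.03 to 0.05 between same-numbered arrays and at -0.08 to 0.04 between the others. These values cannot tell whether same-numbered arrays were prepared together. KDM6A, KDM2A, KDM7A, KDM6B, PRDM4, PRDM1, SETD7, SETD2 and SIRT1 (higher) and HDAC6, KDM1A and PRDM10 (lower), 12 of the 25, passed in every alternative that fitted them. By the most variable probe set the sign turned for 14 of the 68 members, of which 6 passed in either fit: HDAC4 (0.35), KDM3A (-0.29), KMT5B (0.77), PRDM2 (-0.35), PRDM8 (-0.021) and SETD4 (0.24). EZH2 turned too (-0.22). With all probe sets averaged it turned for 9 members, of which 2 passed in either fit: KMT5B (0.33) and PRDM2 (-0.057). These settings read other probe sets, and the cause was not tested. In the other 14 alternatives 0 to 4 members turned, and 0 of these passed in either fit. Of the 43 members that did not pass, 17 did so under at least 1 alternative. All genes' median log2 fold change stayed between -0.03 and 0.00.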
